A study of Homo sapiens with 9 samples.

Results

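The mRNAs of 8 enzymes that make asparagine, glutamate, glutamine, alanine, aspartate and proline were followed in HCCLM3, a human liver cancer cell line grown in culture. The enzymes are ASNS, GPT2, GOT1, GOT2, GLUD1, GLUL, PYCR1 and ALDH18A1, and each was found by its symbol, giving 8 of the 20379 genes in the deposited table. The 8 were selected on their place in amino acid synthesis together with fold changes against control siRNA, with and without control library c, from an earlier analysis of these libraries. Their values against control cells are therefore given as a description, with no p-value, and calls there are only counted beside the share of all genes called.

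The libraries fall into 3 groups of 3. In the first, cells were transfected with siRNA against UXS1, whose product turns UDP-glucuronate into UDP-xylose. In the second, the siRNA was against MRPL42, which encodes a protein of the mitochondrial ribosome. In the third, cells received a non-targeting control siRNA, so all groups share the line and the transfection. The labels used here give no siRNA sequence, dose or harvest time. An siRNA lowers an mRNA without deleting the gene, and 1 cell line limits how far the values apply to liver.

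Asparagine synthetase, alanine transaminase and related enzymes tie amino acid supply to the tricarboxylic acid cycle. When amino acids run short or the endoplasmic reticulum or mitochondria are stressed, the transcription factor ATF4 is translated more and raises a set of amino acid genes, of which ASNS is the textbook case. ATF4 binds with C/EBP partners at composite sites, one form of which reads TGATGNAA. In the liver, GLUL marks the hepatocytes around the central vein, where it takes up ammonia into glutamine and is a target of beta-catenin.

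The windows of ASNS and GOT1 are shown because they are the ones among the enzymes in which this motif was found. RefSeq (GRCh38.p14) listed promoters for 6 of the 8 enzymes, as 8 windows of the 250 bases before a start, and GPT2 and PYCR1 were not among them. TGATGNAA, searched on both strands, was in 1104 of 35116 windows of this length over all genes (3.14%). It was found in 1 of the 2 ASNS windows, at bases -68 to -61 before the start on the gene's strand, and in the GOT1 window, at bases -198 to -191 on the opposite strand. Each sequence runs 5′ to 3′ on the gene's strand, with the motif in capitals.
ASNS, chr7:97872409-97872658, minus strand: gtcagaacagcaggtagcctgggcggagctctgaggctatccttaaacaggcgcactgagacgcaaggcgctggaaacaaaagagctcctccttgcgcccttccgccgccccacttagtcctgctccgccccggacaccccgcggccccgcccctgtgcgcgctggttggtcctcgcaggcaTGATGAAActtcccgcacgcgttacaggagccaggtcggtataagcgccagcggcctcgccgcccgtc
GOT1, chr10:99430625-99430874, minus strand: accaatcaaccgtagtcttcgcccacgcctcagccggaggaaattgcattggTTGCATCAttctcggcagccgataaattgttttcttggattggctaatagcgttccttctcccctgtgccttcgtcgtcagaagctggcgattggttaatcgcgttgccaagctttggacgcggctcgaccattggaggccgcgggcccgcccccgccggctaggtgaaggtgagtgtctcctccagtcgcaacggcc
The windows of GOT2, GLUD1, GLUL and ALDH18A1 did not hold these letters. Another run of letters that was searched, TGACGTNA, was in 938 of all windows (2.67%) and in that of ALDH18A1, at bases -12 to -5. It is not counted here as a form of the composite site. A match is only a run of letters in these windows, and binding was not measured.

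Levels of 1 gene across libraries are given as CPM, read counts brought to a common library size and scaled by TMM. Levels of different genes are given as CPM per kilobase, divided by the length of the gene's principal transcripts in GENCODE 29. Libraries held 15265959 to 22400560 estimated counts. One control library, c, stood apart: its correlation of log2 CPM with the other libraries was 0.956 to 0.967, against at least 0.985 among the other 8. It had 195 genes more than 4-fold from both other controls, against 4 to 11 such genes in each other library. Differences from control siRNA are therefore given with and without it. Neither targeted gene fell past the threshold, so the groups are named by their siRNA and not as knockdowns. UXS1 had 138 to 145 CPM under UXS1 siRNA, against 144 to 180 CPM under control siRNA (log2 fold change -0.17, edgeR adjusted p = 0.348, and -0.08 without control c, edgeR adjusted p = 0.519). MRPL42 had 81.8 to 104 CPM under MRPL42 siRNA, against 100.4 to 147 CPM under control siRNA (log2 fold change -0.39, edgeR adjusted p = 0.185, and -0.24 without control c, edgeR adjusted p = 0.252). Of 15 liver and liver cancer markers, KRT8 and KRT18 had over 1000 CPM, APOB, APOH, HNF4A and FOXA2 had 34.0 to 111 CPM, TF 12.5 to 42.2 CPM and FGB 1.59 to 39.7 CPM. ALB had 3.61 to 14.4 CPM, AFP 1.64 to 2.69 CPM and SERPINA1 1.22 to 3.56 CPM, APOA1 and TTR stayed under 1 CPM, and GPC3 was at 0 in every library. Over the 12 of these that were tested, the mean log2 CPM relative to all libraries was -0.58 in control c and -0.03 to 0.11 in the other 8. The bulk libraries cannot tell fewer expressing cells from less RNA per cell.

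ASNS, asparagine synthetase, makes asparagine from aspartate with glutamine as the nitrogen donor (chromosome 7, 97852118 to 97872542, minus strand; this and all gene positions from GENCODE 29, GRCh38). It had 107, 107 and 119 CPM in UXS1 siRNA libraries a, b and c, and 130.5, 100.4 and 105 CPM in those of MRPL42 siRNA. Control library a had 243 CPM, b 261 CPM and c 85.3 CPM. Controls a and b thus lay above all 6 libraries with a targeting siRNA and control c below all 6, so that each targeting siRNA group overlapped the controls only through c. The means were 111 ± 6.89 CPM under UXS1 siRNA, 112 ± 16.3 CPM under MRPL42 siRNA and 196 ± 96.6 CPM under control siRNA (SD, n = 3 each). With all 9 libraries the fitted log2 fold change of ASNS was -0.82 (SE 0.33, 95% interval -1.57 to -0.07) for UXS1 siRNA and -0.81 (SE 0.33, 95% interval -1.56 to -0.06) for MRPL42 siRNA, each against control siRNA. Without control library c it was -1.19 (SE 0.10, 95% interval -1.42 to -0.97) for UXS1 siRNA and -1.18 (SE 0.10, 95% interval -1.40 to -0.95) for MRPL42 siRNA. Both comparisons share the control libraries, so their likeness is not independent.

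GPT2, the mitochondrial alanine transaminase, moves an amino group between glutamate and pyruvate (chromosome 16, 46884378 to 46931297, plus strand). It had 70.8, 74.4 and 73.5 CPM in UXS1 siRNA libraries a, b and c, and 77.9, 73.9 and 78.0 CPM in those of MRPL42 siRNA. Control library a had 115 CPM, b 112 CPM and c 45.3 CPM. As for ASNS, the 6 libraries with a targeting siRNA lay between control c and the other controls. The log2 fold change of GPT2 with all 9 libraries was -0.32 (SE 0.28, 95% interval -0.94 to 0.31) for UXS1 siRNA and -0.25 for MRPL42 siRNA against control siRNA. Without control c it was -0.65 (SE 0.06, 95% interval -0.78 to -0.53) for UXS1 siRNA and -0.57 (SE 0.06, 95% interval -0.70 to -0.45) for MRPL42 siRNA.

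GOT1 and GOT2 are the cytosolic and the mitochondrial aspartate transaminase, the paired enzymes of the malate-aspartate shuttle. GOT1 (chromosome 10, 99396870 to 99431569, minus strand) had 49.4, 51.7 and 52.0 CPM in UXS1 siRNA libraries a, b and c, and 51.5, 50.8 and 52.8 CPM in those of MRPL42 siRNA. The control libraries had 64.1, 62.3 and 39.1 CPM in a, b and c, again with c below and a and b above every library with a targeting siRNA. The log2 fold change of GOT1 with all 9 libraries was -0.11 (SE 0.16, 95% interval -0.46 to 0.24) for UXS1 siRNA and -0.09 for MRPL42 siRNA. Without control c it was -0.32 (SE 0.06, 95% interval -0.45 to -0.19) for UXS1 siRNA and -0.30 (SE 0.06, 95% interval -0.43 to -0.16) for MRPL42 siRNA.

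GOT2 (chromosome 16, 58707131 to 58734357, minus strand) varied least of the 7 enzymes with enough counts to fit, over a range of 0.13 on the log2 scale across the 9 libraries. It had 173, 175 and 183 CPM under UXS1 siRNA, 176, 186 and 183 CPM under MRPL42 siRNA, and 172, 170.2 and 182 CPM in control libraries a, b and c. Control c lay inside the values of both targeting siRNAs here. The log2 fold change against control siRNA was 0.02 for UXS1 siRNA and 0.06 for MRPL42 siRNA with all libraries, and 0.04 and 0.08 for UXS1 siRNA and MRPL42 siRNA without control c. The ratio of GOT1 to GOT2 in CPM per kilobase was 0.239 to 0.249 in the UXS1 siRNA libraries, 0.230 to 0.247 in the MRPL42 siRNA libraries, and 0.314, 0.308 and 0.181 in control libraries a, b and c.

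**Figure D1:**
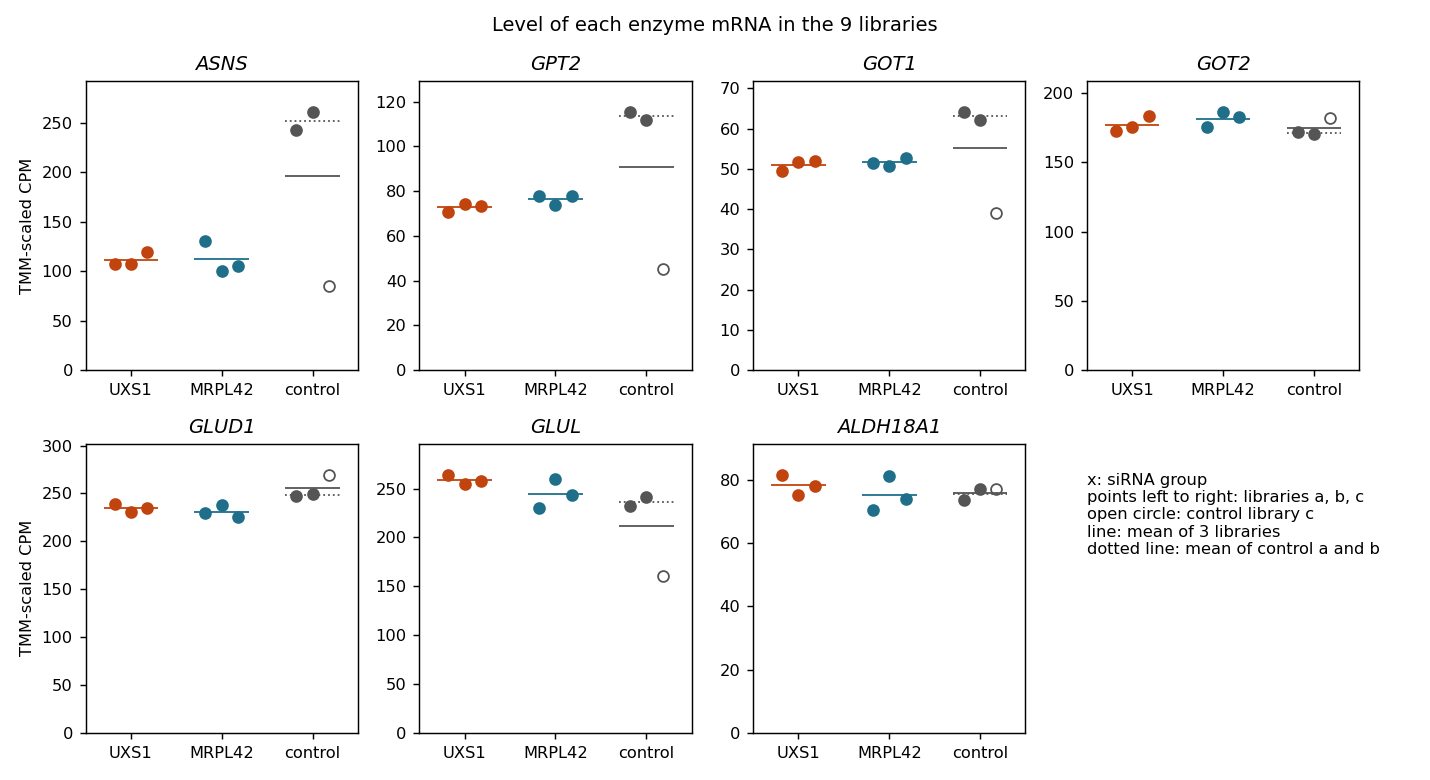
TMM-scaled CPM of the 7 enzymes other than PYCR1 (y axis, linear from 0) in each library of the 3 siRNA groups (x axis), with points from left to right for libraries a, b and c. Solid lines are means of 3 libraries, dotted lines the mean of controls a and b, and the open circle is control c, which for ASNS, GPT2, GOT1 and GLUL lies below every other library.

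GLUL, glutamine synthetase, joins ammonia to glutamate (chromosome 1, 182381704 to 182392206, minus strand). It had 264, 255 and 258 CPM in UXS1 siRNA libraries a, b and c, 230.3, 260.3 and 244 CPM in those of MRPL42 siRNA, and 232, 242 and 161 CPM in control libraries a, b and c. All UXS1 siRNA libraries were above all controls, the nearest control being b, whereas the MRPL42 siRNA libraries overlapped controls a and b. The log2 fold change of GLUL was 0.29 (95% interval -0.01 to 0.59) for UXS1 siRNA and 0.21 for MRPL42 siRNA with all libraries. Without control c it was 0.12 (95% interval -0.02 to 0.25) for UXS1 siRNA and 0.04 for MRPL42 siRNA. In CPM per kilobase, the ratio of ASNS to GLUL was 0.746 to 0.850 in the UXS1 siRNA libraries, 0.710 to 1.04 in the MRPL42 siRNA libraries, and 1.93, 1.99 and 0.977 in control libraries a, b and c.

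GLUD1, mitochondrial glutamate dehydrogenase, interconverts glutamate and 2-oxoglutarate (chromosome 10, 87050486 to 87094866, minus strand). It had 239, 231 and 235 CPM under UXS1 siRNA, 229, 237 and 225 CPM under MRPL42 siRNA, and 247, 249.6 and 270 CPM in control libraries a, b and c. The controls were above every library with a targeting siRNA, control c the highest, by a small margin. The log2 fold change of GLUD1 was -0.12 (95% interval -0.25 to 0.01) for UXS1 siRNA and -0.15 (95% interval -0.28 to -0.02) for MRPL42 siRNA with all libraries, and -0.09 for UXS1 siRNA and -0.11 for MRPL42 siRNA without control c. GLUD1 values are less certain than the rest, since its near-identical copy GLUD2, at 0.323 to 1.23 CPM, may share reads. GLUD1 also overlaps SHLD2 on the other strand, at 31.3 to 47.1 CPM, and the labels used here do not say if the library kit marks strand.

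ALDH18A1 and PYCR1 are the mitochondrial enzymes that begin and end the making of proline from glutamate. ALDH18A1, pyrroline-5-carboxylate synthase (chromosome 10, 95605929 to 95656706, minus strand), had 81.7, 75.2 and 78.1 CPM under UXS1 siRNA, 70.6, 81.3 and 74.0 CPM under MRPL42 siRNA, and 73.7, 77.3 and 77.1 CPM in control libraries a, b and c. The 3 groups overlapped. Its log2 fold change was 0.04 for UXS1 siRNA and -0.01 for MRPL42 siRNA against control siRNA, with and without control c. PYCR1, a pyrroline-5-carboxylate reductase (chromosome 17, 81932384 to 81942412, minus strand), had 1, 1 and 0 counts under UXS1 siRNA, 1, 1 and 2 counts under MRPL42 siRNA, and 1, 1 and 2 counts in control libraries a, b and c. Every PYCR1 value was under the limit of 3 counts that a count of 0 allows, equal to 0.134 to 0.197 CPM, so no fold is given and PYCR1 is the only one of the 8 enzymes that was not fitted. PYCR3, which encodes another reductase of proline synthesis, had 49.3 to 65.4 CPM over the 9 libraries. PYCR1 overlaps MYADML2 on its own strand, at 0.0528 to 0.518 CPM, and annotated antisense genes. The genes beside PYCR1 had reads, with 149 to 188 CPM for MAFG and 69.3 to 89.4 CPM for SIRT7.

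Per length, GLUD1, GOT2, GLUL and ASNS were the 4 higher enzymes in each group and ALDH18A1, GPT2 and GOT1 the 3 lower, with PYCR1 near 0. Under UXS1 siRNA, GLUD1 had 77.3 ± 1.37 CPM per kilobase, GOT2 71.9 ± 2.19, GLUL 61.4 ± 1.14 and ASNS 48.6 ± 3.01, followed by ALDH18A1 with 23.3 ± 0.968, GPT2 with 18.3 ± 0.473 and GOT1 with 17.5 ± 0.480 CPM per kilobase (SD, n = 3 for each group). Only GPT2 and GOT1 overlapped as neighbours in that order. Under MRPL42 siRNA, GLUD1 had 75.9 ± 2.08 CPM per kilobase, GOT2 73.7 ± 2.17, GLUL 58.1 ± 3.56 and ASNS 48.9 ± 7.10, followed by ALDH18A1 with 22.4 ± 1.62, GPT2 with 19.2 ± 0.584 and GOT1 with 17.7 ± 0.341 CPM per kilobase. GLUD1 overlapped GOT2 there, and GLUL overlapped ASNS. Under control siRNA, ASNS came first with 85.8 ± 42.2 CPM per kilobase, ahead of GLUD1 with 84.1 ± 4.04, GOT2 with 70.9 ± 2.51, GLUL with 50.2 ± 10.5, GPT2 with 22.8 ± 9.89, ALDH18A1 with 22.6 ± 0.600 and GOT1 with 18.9 ± 4.77 CPM per kilobase. ASNS overlapped GLUD1 there, and GPT2 overlapped ALDH18A1. ASNS had 106 and 114 CPM per kilobase in controls a and b, and 37.3 CPM per kilobase in control c, lower in that library than GLUD1, GOT2 and GLUL. The order between genes rests on the lengths used: with the median length of all annotated transcripts only 1 of the 8, PYCR1, kept its place in the control group, and ASNS came after GLUD1, GOT2 and GLUL.

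Counted over the fitted enzymes, 0 of 7 passed the threshold (edgeR adjusted p under 0.05 over all genes) in UXS1 siRNA against control siRNA with all 9 libraries, where 0.0158% of all 12657 genes were called. The count was also 0 of 7 in MRPL42 siRNA against control siRNA, where 0% of all genes were called. By the same threshold, DESeq2 called 0 of 7 in both, where it called 3.28% of all genes for UXS1 siRNA and 4.79% for MRPL42 siRNA. Limma-voom also called 0 of 7 in both, where it called 2 of all genes for UXS1 siRNA and 0 for MRPL42 siRNA. At an unadjusted p under 0.05, edgeR gave 1 of 7, ASNS, for UXS1 siRNA, where 17.8% of all genes passed, and 2 of 7, ASNS and GLUD1, for MRPL42 siRNA, where 20.2% did. Without control library c, ASNS, GPT2 and GOT1 passed as lower in each comparison, 3 of 7, where 1.58% of all 12747 genes were called for UXS1 siRNA (1.07% lower) and 1.33% for MRPL42 siRNA (0.792% lower). Nothing is read from these counts, since the enzymes were chosen with these comparisons known. The median log2 fold change of the 7 was -0.11 for UXS1 siRNA and -0.09 for MRPL42 siRNA with all libraries, beside medians over all genes of -0.00 and -0.01. Without control c, 10 of 16 alternatives counted GOT1 among the called for UXS1 siRNA and 7 of 16 for MRPL42 siRNA, and leaving out control a as well ended the call of GPT2 for MRPL42 siRNA.

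**Figure D2:**
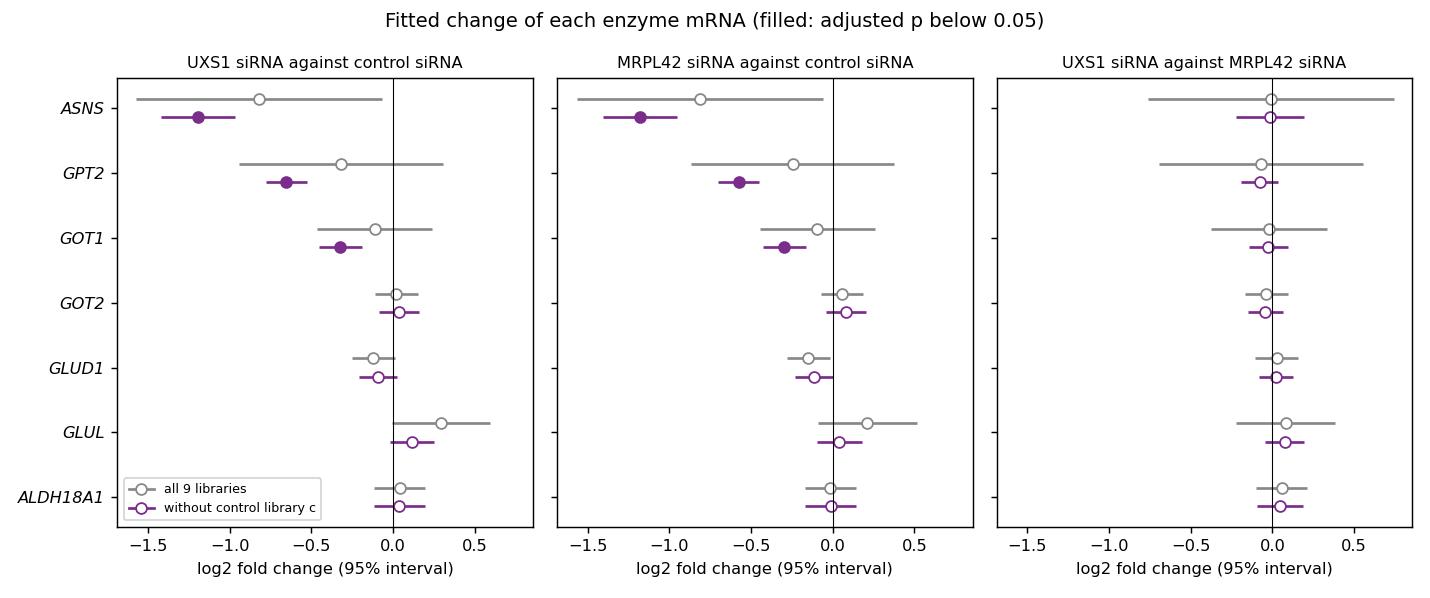
Fitted log2 fold change (x axis) with its 95% interval for each of the 7 enzymes (y axis) in the 3 comparisons, with all 9 libraries in grey and without control c in purple. Filled circles have an adjusted p under 0.05, which only ASNS, GPT2 and GOT1 reach, only without control c, and only against control siRNA.

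Groups that do not overlap were common over all genes, at 26.2% for UXS1 siRNA against control siRNA and 21.6% for MRPL42 siRNA against control siRNA. With all libraries the groups of 2 enzymes did not overlap for UXS1 siRNA, GLUD1 lower and GLUL higher, and those of GLUD1 alone for MRPL42 siRNA. Without control c, 6 of 7 did not overlap for UXS1 siRNA and 5 of 7 for MRPL42 siRNA, where 40.6% and 33.8% of all genes did not.

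The selection used no result of UXS1 siRNA against MRPL42 siRNA, so p-values are given for this comparison. The libraries of both siRNAs did enter the fold changes against control siRNA used in the selection. The comparison is therefore not independent of how the enzymes were chosen. None of the 7 enzymes differed past the threshold between UXS1 siRNA and MRPL42 siRNA, and no gene did by edgeR, DESeq2 or limma-voom (0% called with all 9 libraries and 0% without control c). At an unadjusted p under 0.05, edgeR gave 218 genes (1.72% of all) with all libraries and 682 (5.35%) without control c. It gave 0 of the 7 enzymes in either. The groups of 0 of the 7 enzymes were free of overlap, where 10.1% of all genes were. The log2 fold change of ASNS, UXS1 siRNA over MRPL42 siRNA, was -0.01 with all libraries (95% interval -0.76 to 0.74, edgeR adjusted p = 0.9998) and -0.02 without control c (95% interval -0.22 to 0.19, edgeR adjusted p = 0.986). Control c enters this comparison only through the shared estimate of the spread, the filter on low counts and the TMM scaling, and the narrower interval is the one without it. The largest difference was that of GPT2, -0.08 without control c (95% interval -0.19 to 0.04, edgeR adjusted p = 0.869), next to 0.07 for GLUL (95% interval -0.05 to 0.20, edgeR adjusted p = 0.877). Over the other enzymes the values without control c ran from -0.04 for GOT2 to 0.05 for ALDH18A1. A difference within these intervals was not detectable with 3 libraries a group, which does not show that the siRNAs act alike.

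The genes whose log2 CPM most resembled that of ASNS over the 9 libraries were ALDH1L2, PSAT1, SLC6A9, CTH and SESN2, by the mean absolute difference after centring each gene, among 10552 genes with a mean of at least 5 CPM. The difference was 0.06 for ALDH1L2, 0.09 for PSAT1, 0.10 for SLC6A9, 0.12 for CTH and 0.17 for SESN2, on the log2 scale, where ASNS itself ranged over 1.61. PSAT1 had 156, 167 and 175 CPM under UXS1 siRNA, 194, 155 and 164 CPM under MRPL42 siRNA, and 317, 329 and 134 CPM in control libraries a, b and c. It shared with ASNS the low control c and the highest value among the targeting siRNAs in MRPL42 siRNA library a. The genes nearest to GPT2, whose range was 1.35, were SLC1A4 with 0.06, AKNA with 0.07 and NKX2-2 with 0.09. The other enzymes had ranges under 1, with 0.72 for GLUL, 0.71 for GOT1, 0.26 for GLUD1 and 0.21 for ALDH18A1. These are likenesses over libraries that share their control group and its outlying library.

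**Figure D3:**
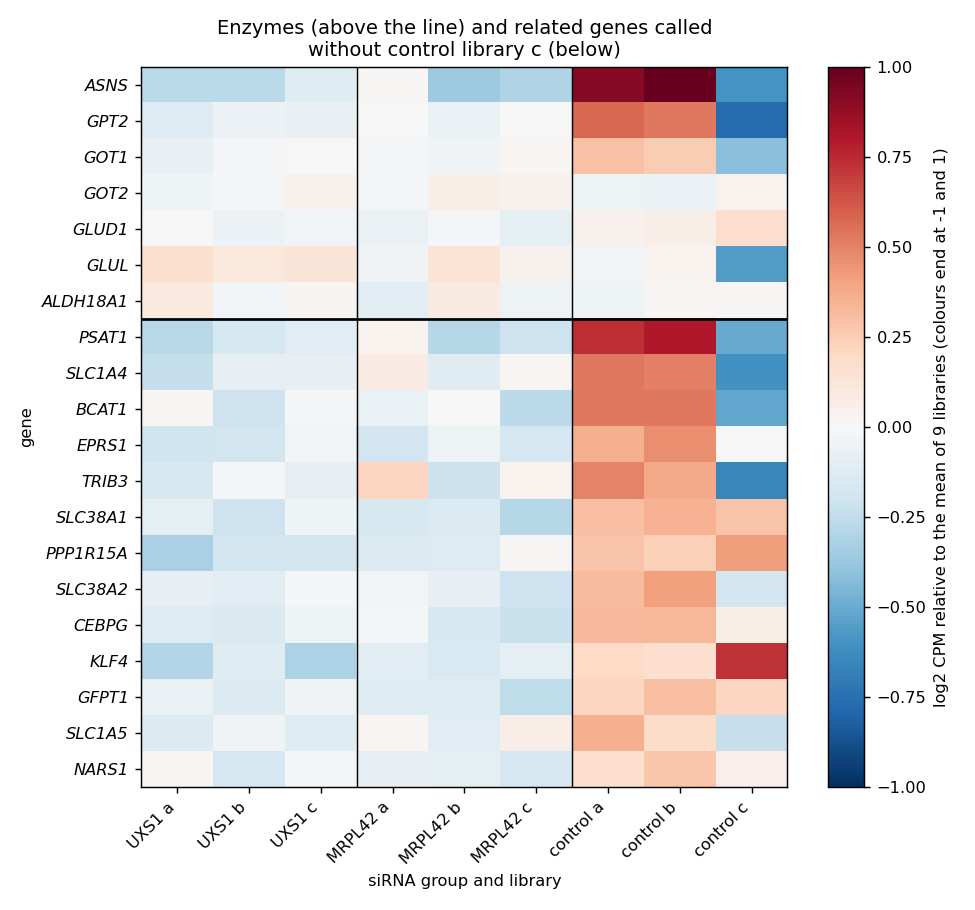
Log2 CPM of each gene relative to its mean over the 9 libraries (colour, ending at -1 and 1) for the 7 enzymes and for related genes called without control c (y axis) in each library (x axis). Controls a and b are above every library with a targeting siRNA for ASNS, GPT2, GOT1 and GLUD1 and for each gene below the line. Control c is the lowest library for ASNS, GPT2, GOT1 and GLUL and, below the line, for PSAT1, SLC1A4, TRIB3, BCAT1 and SLC1A5. It is the highest for GLUD1, KLF4 and PPP1R15A.

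Of 112 further genes of amino acid use, transport and the malate-aspartate shuttle, 90 were tested, and 0 passed with all 9 libraries in either comparison with control siRNA (edgeR). DESeq2 called 5 of them for UXS1 siRNA and 10 for MRPL42 siRNA, where it called 3.28% and 4.79% of all genes. Without control c, 8 were lower and 0 higher in each comparison, where 1.07% of all genes were called lower for UXS1 siRNA and 0.792% for MRPL42 siRNA. The lists were made with earlier results of these data known and are no independent evidence. The median of the 90 was -0.01 for UXS1 siRNA and -0.02 for MRPL42 siRNA, beside medians over all genes of -0.01 and -0.01.

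Of 10 tested transaminases, 2 fell without control c in each comparison. PSAT1, the phosphoserine transaminase of serine synthesis, fell by 0.97 (SE 0.09) on the log2 scale under UXS1 siRNA and by 0.92 (SE 0.09) under MRPL42 siRNA, both against control siRNA. With all libraries its log2 fold change was -0.65 for UXS1 siRNA and -0.60 for MRPL42 siRNA, which did not pass (edgeR adjusted p = 0.270 and 0.254). BCAT1, the cytosolic branched-chain transaminase, fell by 0.61 (SE 0.11) under UXS1 siRNA and by 0.65 (SE 0.11) under MRPL42 siRNA without control c, and had -0.32 and -0.36 with all libraries. Control c had the lowest BCAT1 value too, 7.69 CPM. The median log2 fold change of the transaminases without control c was 0.03 for UXS1 siRNA and -0.03 for MRPL42 siRNA.

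Among 19 tested carriers of glutamate, aspartate and glutamine, 4 fell for UXS1 siRNA and 3 for MRPL42 siRNA without control c. SLC1A4, a carrier of alanine, serine and cysteine, fell by 0.66 (SE 0.08) under UXS1 siRNA and by 0.53 (SE 0.08) under MRPL42 siRNA, and had -0.36 and -0.23 with all libraries. The glutamine carriers SLC38A1 and SLC38A2 fell by 0.45 and 0.45 under UXS1 siRNA and by 0.53 and 0.47 under MRPL42 siRNA. With all libraries SLC38A1 had -0.42 for UXS1 siRNA and -0.51 for MRPL42 siRNA, and SLC38A2 had -0.28 for UXS1 siRNA and -0.31 for MRPL42 siRNA. SLC1A5, the main glutamine carrier of many cancer cells, fell by 0.38 under UXS1 siRNA and had -0.28 under MRPL42 siRNA, which did not pass (edgeR adjusted p = 0.0855), against -0.22 and -0.13 with all libraries. Control c had the lowest value of SLC1A4, 43.2 CPM, and of SLC1A5, 369 CPM, but not of SLC38A1 or SLC38A2. The median log2 fold change of the carriers without control c was -0.15 for UXS1 siRNA and -0.25 for MRPL42 siRNA.

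The remaining amino acid lists held 1 called gene or none without control c. EPRS1, which charges tRNA with glutamate and proline, fell by 0.56 under UXS1 siRNA and by 0.56 under MRPL42 siRNA, and was the 1 called of 13 in glutamine and glutamate turnover, against -0.42 and -0.42 with all libraries. GFPT1, the amidotransferase that begins hexosamine synthesis, fell by 0.35 under UXS1 siRNA and by 0.43 under MRPL42 siRNA, the 1 called of 10 amidotransferases, against -0.33 and -0.41 with all libraries. NARS1, which charges tRNA with asparagine, fell by 0.35 under MRPL42 siRNA and had -0.29 under UXS1 siRNA, which did not pass (edgeR adjusted p = 0.0707), against -0.28 for MRPL42 siRNA and -0.22 for UXS1 siRNA with all libraries.

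None of the proline, malate-aspartate or beta-catenin lists held a called gene. In the proline list the smallest p for UXS1 siRNA with all libraries belonged to ARG2, an arginase, with a log2 fold change of 0.81 (edgeR adjusted p = 0.264), and PEPD, a dipeptidase that frees proline, with 0.17 (edgeR adjusted p = 0.280). In the malate-aspartate and 2-oxoglutarate list they belonged to the isocitrate dehydrogenase genes IDH2, with 0.34 (edgeR adjusted p = 0.171), and IDH3G, with 0.33 (edgeR adjusted p = 0.174). In the beta-catenin list, which bears on GLUL, they belonged to TBX3, with 0.25 (edgeR adjusted p = 0.332), and LGR5, with -0.44 (edgeR adjusted p = 0.583). Without control c these log2 fold changes for UXS1 siRNA were 0.47 for ARG2, 0.10 for PEPD, 0.28 for IDH2, 0.29 for IDH3G, 0.09 for TBX3 and 0.20 for LGR5, so that LGR5 changed sign, and none passed.

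**Figure D4:**
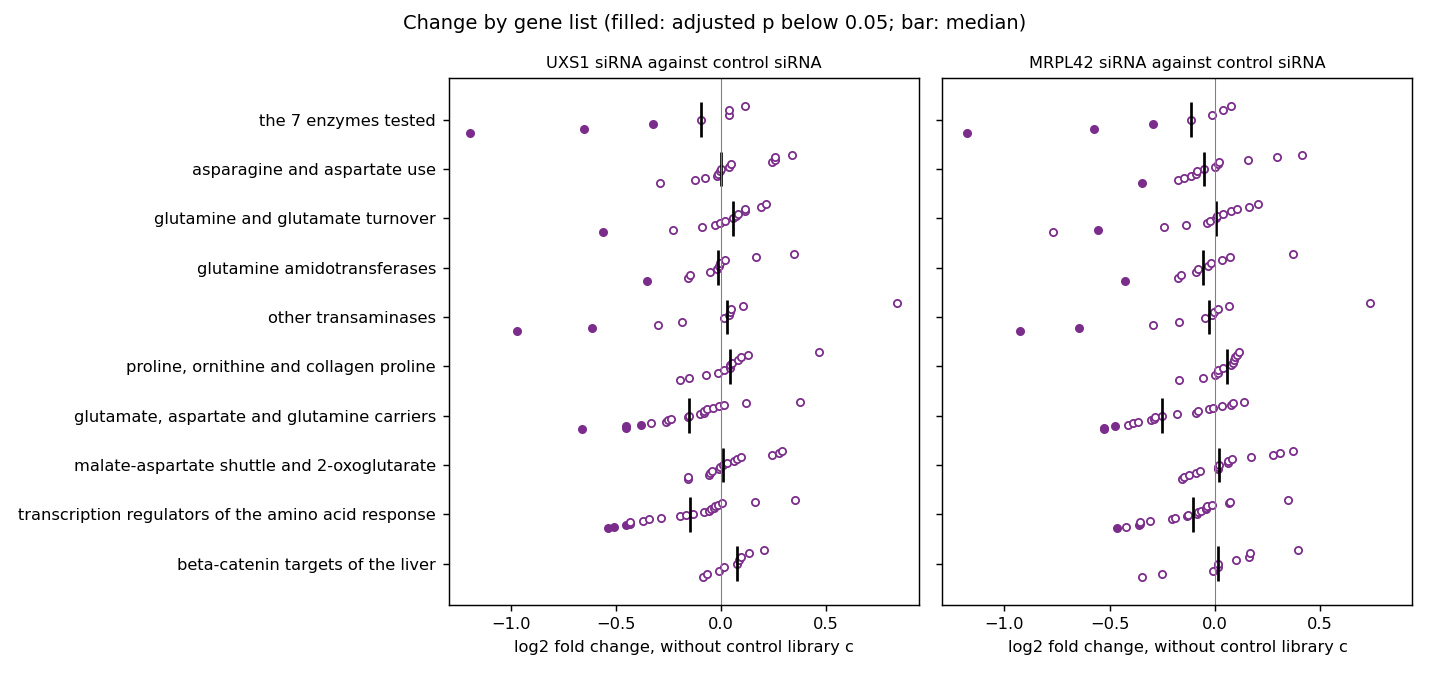
Log2 fold change without control c (x axis) of each tested gene in the enzymes and 9 related lists (y axis), for UXS1 siRNA against control siRNA on the left and MRPL42 siRNA against control siRNA on the right. Filled points have an adjusted p under 0.05, all of them below 0, and bars are medians, -0.09 and -0.11 for the 7 enzymes on the left and right.

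ATF4, the regulator named above, had 232, 259 and 254 CPM under UXS1 siRNA, 296, 224 and 259 CPM under MRPL42 siRNA, and 332, 331 and 183 CPM in control libraries a, b and c. Its mRNA thus had the same low control c as ASNS. Without control c its log2 fold change was -0.43 for UXS1 siRNA (edgeR adjusted p = 0.0667) and -0.36 for MRPL42 siRNA (edgeR adjusted p = 0.103), against -0.19 for UXS1 siRNA and -0.12 for MRPL42 siRNA with all libraries. ATF4 protein was not measured. Of 20 regulators of the amino acid response, 0 passed with all 9 libraries by edgeR. Without control c, 4 fell for UXS1 siRNA: TRIB3, a pseudokinase that ATF4 raises, by 0.53, PPP1R15A, a phosphatase subunit that ends the response, by 0.51, CEBPG, a C/EBP partner of ATF4, by 0.45, and KLF4 by 0.43. For MRPL42 siRNA 2 fell, CEBPG by 0.46 and PPP1R15A by 0.36. Over all genes, 1.07% were called lower for UXS1 siRNA and 0.792% for MRPL42 siRNA without control c. The list of regulators too was made with earlier results of these data known and is no independent evidence. With all libraries UXS1 siRNA gave TRIB3 -0.24, PPP1R15A -0.55, CEBPG -0.35 and KLF4 -0.62, and MRPL42 siRNA gave CEBPG -0.37 and PPP1R15A -0.40. Control c had the lowest TRIB3 value, 233 CPM, and the highest PPP1R15A and KLF4 values.

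Signs of RNA state and markers of other cells stood furthest from the other libraries in control c. Of the 8 listed signs of RNA quality, the 6 tested with all libraries were all histone genes. The 8 summed to 32.5 to 37.9 CPM in the libraries with a targeting siRNA. They summed to 30.0 CPM in controls a and b, and 78.5 CPM in control c. None of them was called in any comparison, and the smallest p for UXS1 siRNA with all libraries belonged to the histone genes H2BC21, with -0.77 (edgeR adjusted p = 0.359), and H2AC6, with -0.30 (edgeR adjusted p = 0.634), which without control c had 0.00468 for H2BC21 and 0.22 for H2AC6. By the mean of the signs tested, controls a and b stood apart too, on the low side. The mean log2 CPM of the 6 signs tested, relative to all libraries, was -0.52 and -0.35 there. It was -0.11 to 0.07 with a targeting siRNA and 0.99 in control c. The lowest single values in controls a and b were those of H2BC4, -1.44 and -0.62. H1-2 and H2BC12 were also below every library with a targeting siRNA in both controls. H4C8, H2AC6 and H2BC21 overlapped those libraries. Without control c, 6 of 7 signs were above 0 against control siRNA for each targeting siRNA. Their median log2 fold change was then 0.30 for UXS1 siRNA and 0.22 for MRPL42 siRNA. The 6 fibroblast markers summed to 56.2 to 64.0 CPM in the libraries with a targeting siRNA, 53.9 and 56.8 CPM in controls a and b, and 303 CPM in control c, where LUM alone had 277 CPM. The 4 endothelial markers summed to 58.7 to 72.0 CPM in the libraries with a targeting siRNA, 69.6 and 66.3 CPM in controls a and b, and 24.0 CPM in control c, with CDH5 at 0 throughout. The 5 leukocyte markers summed to 4.91 to 8.88 CPM in the libraries with a targeting siRNA, 5.52 and 5.22 CPM in controls a and b, and 1.96 CPM in control c. Within each of these 3 lists single markers went both ways in control c. DCN (25.0 CPM), VWF (0.742 CPM) and PTPRC (0.530 CPM) were at their highest there. COL3A1, KDR (3.98 CPM) and LYZ (1.22 CPM) were at their lowest. The part of these differences in the low ASNS, GPT2, GOT1 and GLUL of control c was not tested.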

How the data were processed

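RNA from 9 HCCLM3 libraries was enriched for mRNA, fragmented, reverse transcribed and amplified by PCR, per the labels' protocols. The tools fastp, HISAT2, Bowtie2 and edgeR and the genome build hg38 are named, with no version or role, in the submitters' processing notes, and no source used here names the annotation. The estimated counts that the authors deposited per gene are not divided by depth or length, and 83.6% to 84.9% of the values above 0 were whole. The table's 9 further columns of values per library were not used, since only 1 measure per group could be matched to samples by name. Levels that the design set in deposited units per length were therefore computed as CPM per kilobase.

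Column names gave the group only (that of UXS1 is misspelled), and the library letters are not repeat numbers of the labels. Separate cultures are not stated, so p-values describe the spread between libraries, which may be technical. Every pair of libraries differed by more than counting noise (lowest chi-square per gene 3.34). The limit of 3 counts covers counting error only, since the labels describe PCR and no molecular identifiers. Of the genes, 20128 were found in GENCODE 29.

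The design assumed counts, and estimated counts were rounded to whole numbers for it. Genes passing filterByExpr were scaled by TMM and fitted in edgeR 4.0.16 (R 4.3.3) with 1 mean per group over all libraries. Two-sided quasi-likelihood p-values got a Benjamini-Hochberg adjustment over all genes tested, with a threshold of 0.05. The spread between libraries, as edgeR's common coefficient of variation, was 0.130 with control c and 0.0753 without it. CPM values use the scaling of the 9-library fit. Alternatives used limma 3.58.1 and DESeq2 1.42.0. The procedure was tested on simulated data. Members and lists were chosen with earlier results of these data known. Named in the text were all 8 enzymes, both targets, up to 4 called genes of each other list (otherwise the 2 with the smallest p for UXS1 siRNA), the 5 genes nearest to ASNS and the 3 nearest to any other enzyme whose range was at least 1, in log2 CPM. GLUD2, SHLD2, ATF4, PYCR3, MYADML2, the neighbours of PYCR1 and single markers were named after their values were seen. Some genes are not reported here.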

Additional observations from a re-analysis of the deposited data

How the results depend on the processing

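The alternatives were DESeq2, limma-voom, DESeq2's size factors in edgeR, library totals, no filter on low counts, only the compared groups, a transcript length offset, the library letter as a replicate block and leaving out each library. Leaving out control c was planned, and the rerun of each other alternative without it was chosen after seeing the data. With all libraries, the enzymes called numbered 0 in both control comparisons, 3 in each with the length offset without control c, and 0 to 3 on leaving out each library, the 3 being without control c. Related genes called were 0 for UXS1 siRNA, with 5 by DESeq2, 2 with only the compared groups, 10 with the length offset without control c, and 0 to 8 on leaving out libraries. For MRPL42 siRNA they were 0, with 10 by DESeq2, 9 with the length offset without control c, and 0 to 8 on leaving out libraries. Over all genes, edgeR called 2 for UXS1 siRNA against 415 by DESeq2, 253 with only the compared groups and 355 without MRPL42 siRNA b, and 0 for MRPL42 siRNA against 606 by DESeq2 and 810 without MRPL42 siRNA b. Without control c, edgeR called 201 genes for UXS1 siRNA against 385 by DESeq2, 1376 with only the compared groups, 61 with the replicate block and 9 (without control a) to 1206 (without MRPL42 siRNA b) on leaving out libraries. It called 169 for MRPL42 siRNA against 455 by DESeq2, 402 with no filter, 292 with the length offset, 36 with only the compared groups, 15 with the replicate block and 7 (without control a) to 1856 (without MRPL42 siRNA b) on leaving out libraries; the length offset gave 317 for UXS1 siRNA. Without control c, related genes called for UXS1 siRNA were 8, with 17 from only the compared groups, 3 with the replicate block and 1 to 15 on leaving out libraries. For MRPL42 siRNA they were 8, with 13 by DESeq2, 13 with no filter, 4 with only the compared groups, 1 with the replicate block and 1 to 20 on leaving out libraries. The enzymes called for MRPL42 siRNA without control c were 3, and 1 to 3 on leaving out libraries, the 1 being ASNS without control a. The median of the enzymes without control c was -0.09 for UXS1 siRNA, -0.11 with library totals, -0.20 with no filter, which adds PYCR1, -0.0646 with the length offset and -0.10 to -0.0821 on leaving out libraries. For MRPL42 siRNA it was -0.11, -0.10 with size factors, -0.15 with library totals, -0.0716 with no filter, -0.0877 with the length offset and -0.14 to -0.10 on leaving out libraries. Between the UXS1 and MRPL42 siRNAs, the median of -0.01 became 0.0130 with the replicate block and ran from -0.0321 to 0.0153 on leaving out libraries; without control c it was -0.02, 0.00320 with library totals and -0.0403 to 0.0173 on leaving out libraries. ASNS between these siRNAs, -0.01, turned to 0.00348 with library totals and 0.0130 with the replicate block and ran from -0.0805 to 0.11 on leaving out libraries; without control c it was 0.00320 with library totals and ran from -0.0846 to 0.12. GOT1 ran from -0.0406 to 0.00361 on leaving out libraries. The labels used here do not say if libraries with the same letter belong together. Correlations of deviations ran from -0.27 to 0.13 for the same letter and from -0.24 to 0.28 for different letters. With 3 libraries a group they cannot show whether the letters pair the libraries. The replicate block is therefore given as a value only. Under it GOT1 was not called without control c for either siRNA. The cause of these changes was not tested. In the order per length of the control group, 1 of 8 enzymes kept its place with the median length of all transcripts, and the planned order by deposited units was not run. PYCR1 had at most 2 counts a library, so differences in it were not detectable at this depth.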
